A study of Mus musculus with 4 samples.

Results

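The cytosolic ribosomal proteins are the protein building blocks of the ribosomes that translate nuclear-encoded mRNAs. Their genes were taken from a RefSeq gene table of GRCm38 as the protein-coding genes with an Rpl or Rps symbol followed by a number, with an optional letter, plus Rplp0, Rplp1, Rplp2 and Rpsa. Pseudogenes and the Rps6k kinases did not enter. This gave 81 of 21631 protein-coding genes, 50 of the large subunit and 31 of the small subunit. Peaks within 5 kb of these genes, merged across libraries where they overlapped, formed 137 of the 53140 open regions of the series.

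A ribosome joins a small subunit, which reads the mRNA, to a large subunit, which forms the peptide bond, and every growing cell needs both in matching amounts. The promoters of these genes are known for a short pyrimidine tract at the transcription start, the 5′ terminal oligopyrimidine (TOP) tract, through which the mTOR pathway controls translation of the mRNAs. In heart and skeletal muscle one member has a dedicated paralogue, Rpl3l, which takes the place of Rpl3 in ribosomes as muscle matures.

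Open chromatin was mapped with ATAC-seq, which uses the Tn5 transposase to cut and tag accessible DNA, in nuclei of total hearts of C57BL/6 mice on the day of birth (P0). WT stands for wild-type hearts and edKO for hearts that, per the labels, lack RXRa and RXRb in cardiomyocytes only; these are the alpha and beta retinoid X receptors, nuclear receptors that bind DNA alone or with partner receptors. There were 2 libraries of each genotype, each from 1 heart. The Cre driver is not given in the sources used here, and the nuclei of a whole heart include cells other than cardiomyocytes. In such bulk samples fewer cells of a type and less open chromatin per cell cannot be told apart. Where 4 values stand together, they follow the order WT 1, WT 2, edKO 1, edKO 2. The deposited lists held 35279, 38809, 27473 and 27142 peaks, or 37044 ± 2496 in WT and 27307.5 ± 234 in edKO (mean ± SD, n = 2 each). Between 2 libraries and 2, the smallest two-sided p of an exact permutation test is 0.333, so no difference between genotypes could pass 0.05 here. Starts of 7 of 8 cardiomyocyte marker genes were called in all 4 libraries, with Myl7 in none. Of the 3 fibroblast marker starts, Tcf21 was called in both WT and neither edKO library (−log10 p of 10.45 and 7.20), Pdgfra in none and Col1a2 in all 4. The part of other cell types in the results was not tested. Of the 3 endothelial marker starts, Tie1 and Kdr were called in all 4 and Tek in none, whereas 0 of 2 immune, 0 of 4 erythroid and 0 of 2 skeletal muscle marker starts were called in any library.

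Nearly all ribosomal protein genes had a called, open start in every heart. A start was called when a peak overlapped the window from 250 bases before to 50 bases after a transcription start listed by RefSeq, and 61 members had such a listed start. Calls were made at 58, 58, 57 and 57 of these. Thus 57 of 61 starts (93.4%) were called in all 4 libraries, compared with 46.1% of the 17274 protein-coding genes with a listed start. The 2 genotypes differed by 1 start (58 ± 0 in WT and 57 ± 0 in edKO, n = 2 each, exact permutation p = 0.333, two-sided). That 1 start belonged to Rpl3l, the muscle paralogue of Rpl3. The other 3 starts, those of Rpl10l, Rpl32l and Rpl39l, were called in no library.

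The small subunit was complete: all 23 of its genes with a listed start were called in all 4 libraries. Of the large subunit, 34 of 38 were (89.5%), and the 4 exceptions are the paralogues just named. Genes of the mitochondrial ribosome, a separate machine that translates mitochondrial DNA, had 60 of 69 starts called in all 4 (87.0%), 4 called in both WT and neither edKO library and 1 called in none. Over all protein-coding genes, 1.42% of listed starts were called in both WT and neither edKO library.

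**Figure D1:**
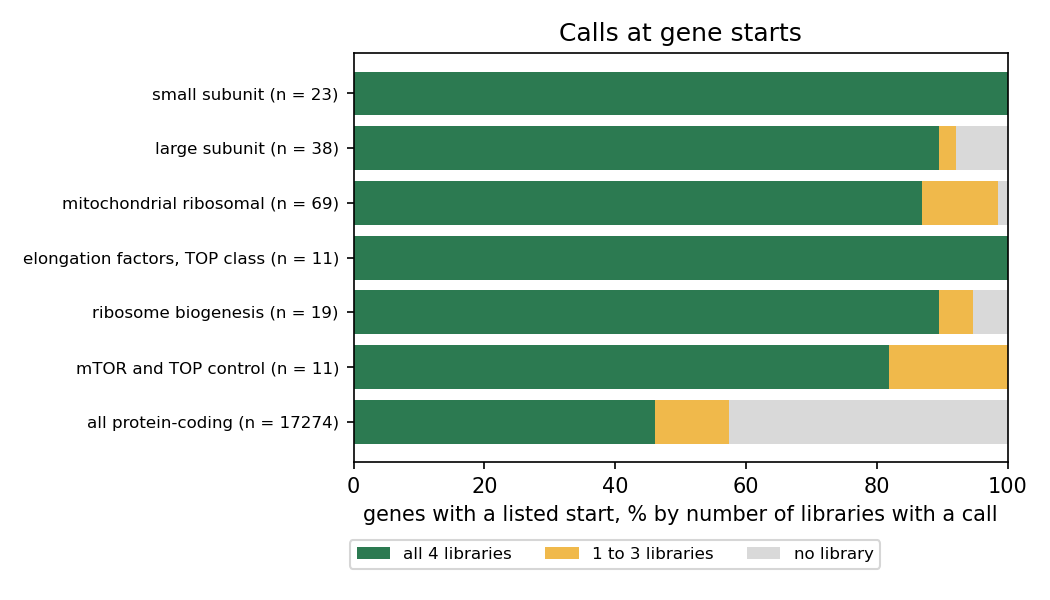
Share of genes (x axis, percent of the genes with a listed start) whose start was called in all 4 libraries, in 1 to 3 libraries or in none, for groups of genes on the y axis. The bar of the small subunit is filled to its end, and that of all protein-coding genes reaches 46.1% for all 4 libraries.

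At the median, member starts were stronger than all starts in every library but edKO 2, and the median level of the family moved with the library. Strength is the authors' −log10 p at a peak's summit, which scales with the depth and enrichment of a library. Over the 57 starts called in all 4 libraries its median was 57.4, 55.9, 39.8 and 21.8, highest in the WT libraries and lowest in edKO 2. The same medians over the 7501 start regions of all protein-coding genes were 45.2, 48.2, 31.0 and 21.6. Members thus exceeded the typical start in WT 1, WT 2 and edKO 1, and lay level with it in edKO 2. The fold enrichment over local background had medians of 10.6, 11.8, 10.9 and 7.33 for the members, beside 10.3, 10.8, 9.84 and 7.45 for all starts. The pileup is the height of the signal at the summit recovered from fold and p. Whether it counts fragments or read ends is not stated. Its medians were 80, 74, 51 and 35 for the members and 62, 65, 41 and 35 for all starts.

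**Figure D2:**
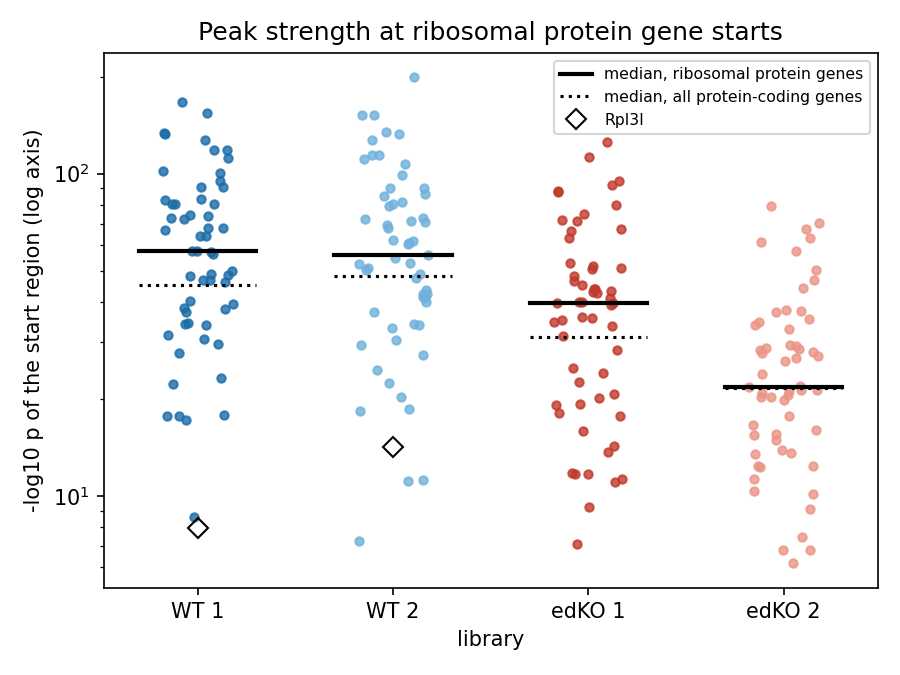
The −log10 p of the start region (log axis) in each of the 4 libraries, with 1 point for each of 57 ribosomal protein genes, solid lines at their medians and dotted lines at the medians of all protein-coding starts. Diamonds mark Rpl3l, which has a value in WT 1 and WT 2 only, and the solid line drops to 21.8 in edKO 2.

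To compare libraries on one scale, each region was given the percentile of its −log10 p among the 16568 regions called in all 4 libraries. The median percentile of the member starts was 75.4, 71.4, 74.9 and 68.0, and that of all starts was 67.3, 66.0, 67.0 and 67.7. Values of the 2 genotypes overlapped, since edKO 1 lay between the WT libraries. The WT mean was 73.4 ± 2.78 and the edKO mean 71.5 ± 4.91 (SD, n = 2 each), a difference of 1.94 percentile points (exact permutation p = 0.667, two-sided). By subunit, the median percentile was 75.4, 77.8, 75.9 and 75.8 for the small subunit and 74.7, 69.4, 69.1 and 65.7 for the large subunit. The order of the genes was much alike in the 4 libraries, with Spearman's rho across the 57 genes from 0.837 (WT 1 with edKO 2) to 0.917 (WT 2 with edKO 1); genes are not independent replicates, and all regions of a library share its depth.

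The strongest starts were those of Rps21, Rpl27, Rpl37, Rpl13a and Rpl15, with mean percentiles over the 4 libraries of 97.4, 97.1, 95.0, 94.3 and 92.8. Rps21, a small-subunit protein gene on chromosome 2 (chr2:180257379-180258444), had −log10 p of 154.7, 199.0, 125.4 and 70.04. Rpl27, a large-subunit gene on chromosome 11 (chr11:101442245-101445596), had 166.8, 151.6, 112.6 and 79.4. In both, each WT value exceeded each edKO value, as did the library medians over all starts. The percentiles of Rps21 (97.6, 98.9, 97.8 and 95.3) and of Rpl27 (98.5, 96.2, 96.8 and 96.7) overlapped between genotypes. The sequences around these 2 starts are shown because they had the highest mean percentiles of the ranked starts. Each line is the strand of the gene in GRCm38 from RefSeq and runs from 100 bases before to 20 bases after the listed start, and capitals mark matches to the motifs searched (ETS core CCGGAAG, GC box GGGCGG and the CCAAT box of NFY, either strand).
Rps21: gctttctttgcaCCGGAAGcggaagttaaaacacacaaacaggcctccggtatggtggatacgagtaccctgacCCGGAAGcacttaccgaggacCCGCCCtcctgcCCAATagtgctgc
Rpl27: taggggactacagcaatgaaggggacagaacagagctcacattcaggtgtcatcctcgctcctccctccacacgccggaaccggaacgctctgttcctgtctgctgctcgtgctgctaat

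At the other end lay Rpl4, Rpl37a, Rps4x, Rpl35a and Rpl38, with mean percentiles of 15.0, 19.7, 22.2, 31.2 and 31.2. Rpl37a (chr1:72711260-72713813), a large-subunit zinc-binding protein gene, had −log10 p of 22.2, 11.1, 9.21 and 6.78, with WT 1 above the other libraries. Rpl4 (chr9:64173387-64178562), a large-subunit gene, had 8.59, 7.26, 7.09 and 12.3, so that edKO 2 held the highest value. The open chromatin at Rpl4 was split into 2 regions, both of which met the start window. The second, at chr9:64172642-64173224, had −log10 p of 13.95, 11.4 and 5.41 in WT 1, WT 2 and edKO 2 and was not called in edKO 1. Rps4x, the X-linked gene of a small-subunit protein, had 17.2, 18.3, 11.1 and 6.18, and its percentiles (28.4, 26.2, 25.2 and 8.92) were also higher in both WT libraries. The sequences of the 2 weakest starts follow, drawn in the same way, with capitals in Rpl4 on a match to the pyrimidine motif CTTTCC within a run of 14 pyrimidines that ends shortly before the listed start.
Rpl37a: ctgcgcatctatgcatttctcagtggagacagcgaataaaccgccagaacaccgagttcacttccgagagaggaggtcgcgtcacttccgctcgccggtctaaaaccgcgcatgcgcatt
Rpl4: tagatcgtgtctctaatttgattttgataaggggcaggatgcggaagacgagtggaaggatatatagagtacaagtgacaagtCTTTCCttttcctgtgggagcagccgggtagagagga

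**Figure D3:**
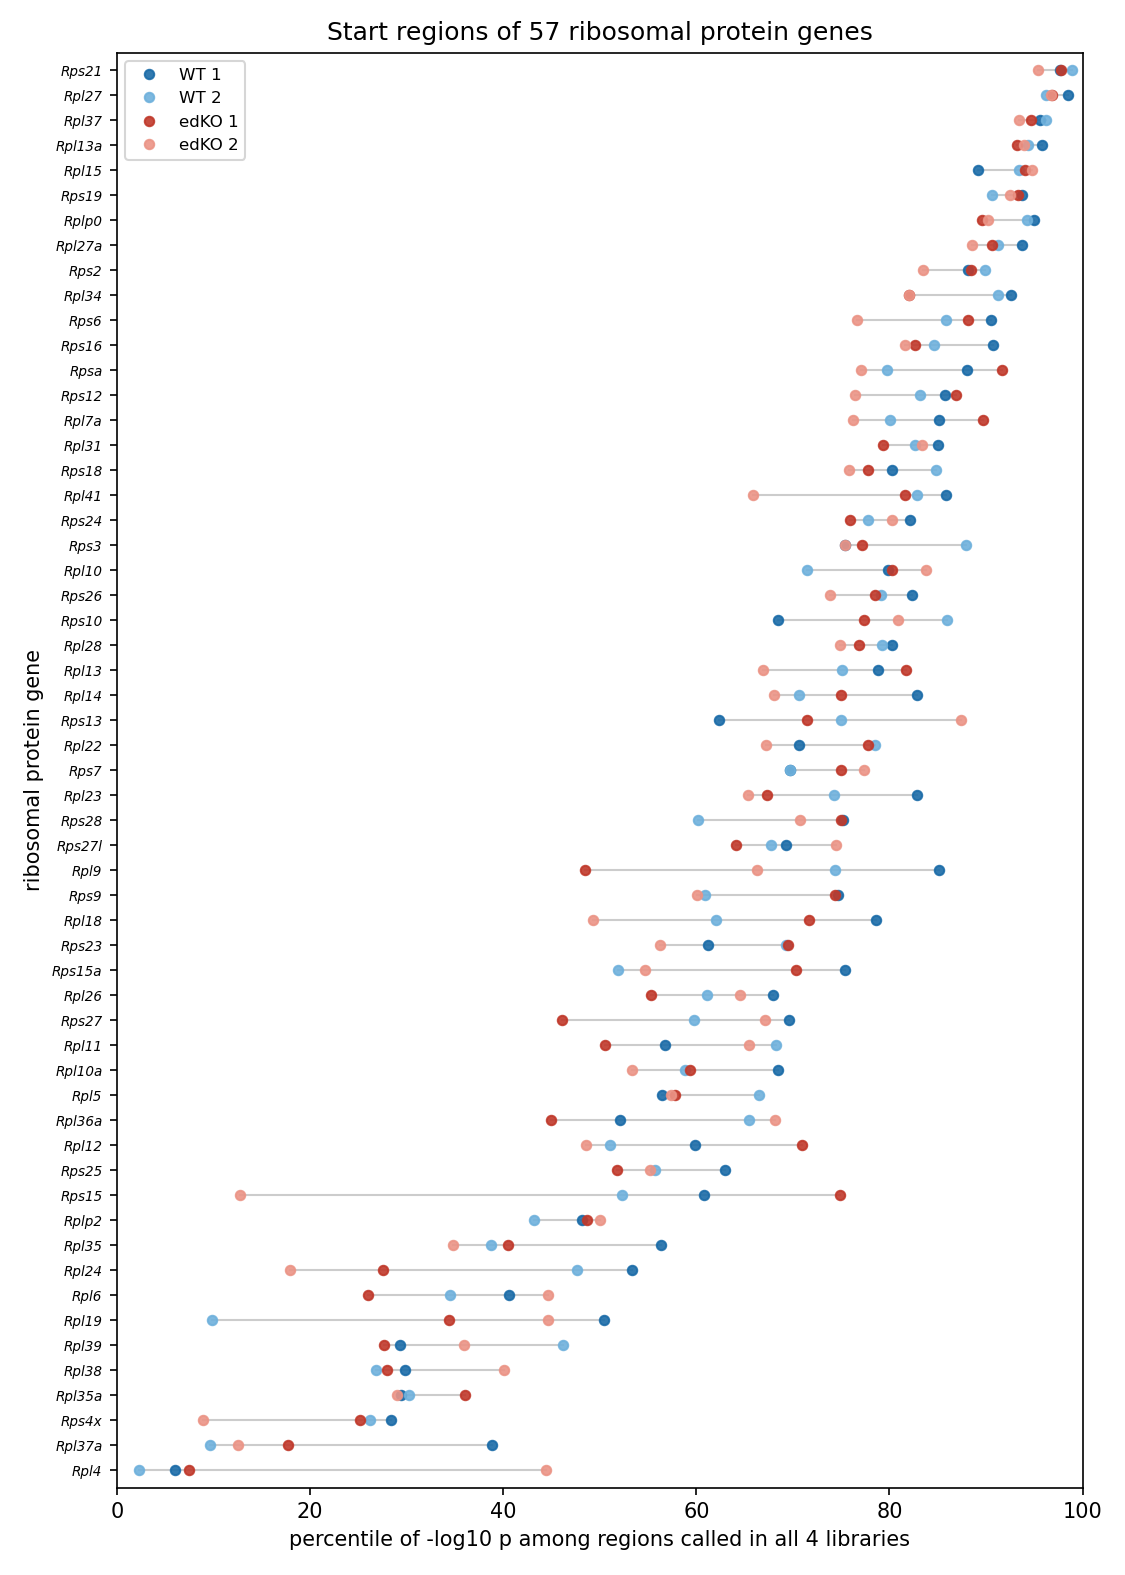
Percentile of the −log10 p of each start region (x axis) for 57 ribosomal protein genes (y axis, ordered by their mean), with 1 point for each library and a grey line over the range. Rps21 at the top spans 95.3 to 98.9, and Rpl4 at the bottom spans 2.29 to 44.4.

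Among the 61 listed member starts, only that of Rpl3l was called in both WT and neither edKO library. Over all protein-coding genes 246 of 17274 listed starts (1.42%) were, so 1 of 61 lies close to that share. Rpl3l encodes the form of the large-subunit protein uL3 that heart and skeletal muscle use, and lies on the plus strand at chr17:24727826-24736143. RefSeq lists 2 starts for it, the second 4859 bases downstream of the first and inside the gene. No peak was called at the first start in any library. At the second, a region of 280 bases (chr17:24732417-24732696) was called in both WT libraries, with −log10 p of 7.95 and 14.2, and in neither edKO library. Its fold enrichment was 3.0 and 3.88, its pileup 31 and 43, and its summits lay at −117 and −105 bases from the second start. The starts of both flanking genes were called in all 4 libraries. At Ndufb10, a subunit of respiratory complex I, −log10 p was 27.1, 21.8, 27.9 and 14.7, and at Msrb1, a methionine sulfoxide reductase, it was 79.6, 113.4, 78.1 and 40.9.

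This was the only WT-only region, called in both WT and neither edKO library, among the 111 member regions called in both WT libraries (0.901%). The share was 19.4% over all regions called in both WT libraries and 16.6% over those within 5 kb of any protein-coding gene. The 111 regions include flanks and starts of other genes. At listed starts alone, 1 of 59 member regions was WT-only, beside 2.93% of such regions over all protein-coding genes. Of the 4056 regions whose −log10 p in both WT libraries lay between 7.95 and 14.2, the values at Rpl3l, 33.5% were WT-only. With every list reduced to the 27142 strongest peaks the Rpl3l region was still WT-only. It was then 1 of 108 member regions called in both WT libraries, and the share over all regions was 10.6%. Leaving out a library could not change the status of the Rpl3l region, since it was called in both WT and neither edKO library. It dropped out when a −log10 p of at least 10 was required, since WT 1 had 7.95.

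**Figure D4:**
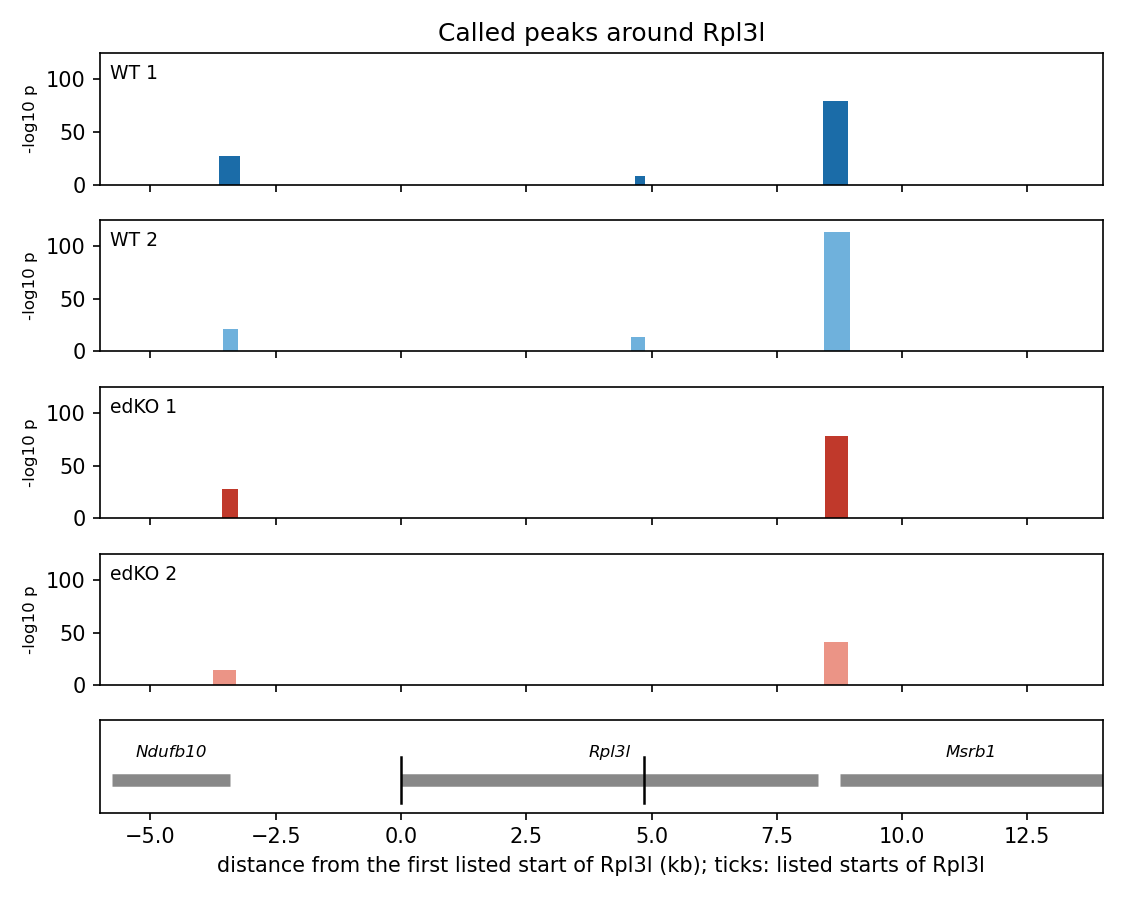
Called peaks around Rpl3l in the 4 libraries, drawn to scale by distance from the first listed start (x axis, kb) with −log10 p as height (y axis), above the gene bodies, with ticks at the listed starts of Rpl3l. The small peak by the second start stands in WT 1 and WT 2 only, and the peaks at the starts of Ndufb10 and Msrb1 stand in all 4.

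The Rpl3l sequence is shown because RXR receptors bind DNA through the core motif AGGTCA. The first line runs from 100 bases before to 20 bases after the first start, where nothing was called, and the second is the 262 bases of the WT-only region that the RefSeq promoter window covers. Capitals mark AGGTCA on either strand.
Rpl3l first start: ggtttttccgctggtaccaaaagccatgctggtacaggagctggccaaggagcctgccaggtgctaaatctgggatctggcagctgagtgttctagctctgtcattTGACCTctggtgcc
Rpl3l second start: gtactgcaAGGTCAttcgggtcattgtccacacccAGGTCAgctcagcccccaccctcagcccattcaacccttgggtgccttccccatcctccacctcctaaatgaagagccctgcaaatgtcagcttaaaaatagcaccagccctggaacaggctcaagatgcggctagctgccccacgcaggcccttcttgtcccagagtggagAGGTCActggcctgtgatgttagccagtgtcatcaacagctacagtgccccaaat
The window of the second start held 3 matches, all on the sense strand, and the first window held 1 on the antisense strand. Of all 21045 listed promoter windows of protein-coding genes, 20 (0.0950%) held 3 or more matches, and of the 73 windows of members this was the only one. The count of 3 was chosen after the sequence had been seen. At least 1 match stood in 14.4% of the promoters of all genes and in 9.84% of those of members, taking the first listed start of each gene (6 of 61; Rpl10l, Rpl24, Rpl35a, Rpl3l, Rps3 and Rps4x). The DR1 motif, a direct repeat of that motif with a spacer of a single base, occurred in 0 member promoters and in 0.0521% of all. Of the members with a match, Rpl24, Rpl35a, Rps3 and Rps4x had starts called in all 4 libraries, and Rpl10l in none. A match describes letters and does not show binding, and a part of RXR binding in the calls at Rpl3l was not tested.

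Rpl3, the widely used counterpart of Rpl3l, had a region at its gene end with −log10 p of 70.4, 71.6, 40.3 and 23.6. Its percentiles were 81.3, 79.4, 75.3 and 70.4, so both WT values lay above both edKO values. Rpl10l, an intronless copy used in the testis, had no region within 5 kb in any library. Its X-linked parent Rpl10 had −log10 p of 67.0, 55.9, 48.0 and 37.8 and the widest region at a listed start of a member (1143 bases). Rpl39l, a copy best known from the testis, likewise had no region, whereas the X-linked Rpl39 had 17.7, 29.4, 11.7 and 10.4. Rps27l, a gene known as a target of p53, was open like its parent. It had −log10 p of 48.0, 50.1, 28.4 and 26.9, and Rps27 had 48.5, 41.0, 18.1 and 21.3. The percentiles of Rps27l (69.3, 67.7, 64.1 and 74.5) overlapped between genotypes. Rpl32l had no region within 5 kb either.

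The acidic stalk of the large subunit, which recruits elongation factors, is built from Rplp0, Rplp1 and Rplp2. Rplp0 was among the strongest starts, with −log10 p of 127.4, 133.1, 71.5 and 50.4 and percentiles of 95.0, 94.2, 89.6 and 90.2, WT above edKO in each pairing of libraries. Rplp1, assessed at its gene end, had 41.2, 47.7, 22.2 and 13.7. Rplp2 had 27.8, 27.4, 19.3 and 13.9, with percentiles of 48.2, 43.2, 48.6 and 50.0, both WT values below both edKO values. Rplp0 was the strongest of the 3 in every library, and Rplp1 and Rplp2 lay close to each other in edKO 2. Rpsa, a small-subunit protein also known as a laminin receptor precursor, had 90.8, 72.3, 80.1 and 29.2, and its genotypes overlapped.

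Single genes shifted in percentile in both directions. In 15 of the 57 starts (26.3%) both WT percentiles lay above both edKO percentiles, compared with 18.1% of the 7501 start regions of all protein-coding genes. In 5 (8.77%) both lay below, compared with 21.3%. The library edKO 2 held the lowest of the 4 percentiles in 28 of the 57 starts, while WT 1 held the highest in 29. Rpl24, a large-subunit protein gene, showed the largest difference, with percentiles of 53.4 and 47.6 in WT and 27.5 and 17.9 in edKO, a difference of 27.8 points between the means. Rpl9, whose start region also holds that of the lipoic acid synthase gene Lias, had 85.1 and 74.3 in WT and 48.4 and 66.3 in edKO, a difference of 22.4. Rpl4 moved most in the other direction, from a mean of 4.12 in WT to 25.9 in edKO, but edKO 1 stood at 7.44 and edKO 2 at 44.4. This holds for the ranked region of Rpl4 only. The second region at its start went the opposite way. Its −log10 p was 13.95 and 11.4 in WT and 5.41 in edKO 2, with no call in edKO 1. For Rps15 of the small subunit the percentiles were 60.8, 52.3, 74.9 and 12.8, so edKO 2 alone stood low. These genes were picked for their differences, no gene was tested singly, and none could have passed 0.05.

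The 20 members without a listed start, and hence without a strand, were assessed in windows of 1 kb at both gene ends. Calls in all 4 libraries were made for 18 of them (90%), compared with 45% of the 4357 protein-coding genes without a listed start and 47.3% of all protein-coding genes assessed in the same windows. Rps29, a small-subunit gene, was the strongest of these, with −log10 p of 163.2, 162.5, 74.0 and 58.6. Rpl32, a large-subunit gene, had 9.81, 9.25 and 7.75 in the WT libraries and edKO 2 and was missing only from edKO 1. Rpl17 had no call at either end, but a region in its body had 28.2, 25.7, 20.7 and 14.5.

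Over all 137 regions within 5 kb of a member, 116, 122, 106 and 116 were called. The means were 119 ± 4.24 in WT and 111 ± 7.07 in edKO (SD, n = 2 each), a difference of 8 regions (exact permutation p = 0.667, two-sided). WT 1 and edKO 2 had the same count, so the genotypes met. All 4 libraries shared 100 of the 137 regions (73.0%), compared with 36.4% of the regions within 5 kb of any protein-coding gene. No region was edKO-only, that is, called in both edKO and neither WT library, among the 100 called in both edKO libraries, where the share over all regions was 1.35%.

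Most of the 37 regions not shared by all libraries were weak and lay away from the starts. Their highest −log10 p had a median of 7.72 (range 4.28 to 25.4), against 52.5 (12.3 to 199.0) for the 100 shared ones. Part of this difference follows from the grouping, since a call itself depends on −log10 p. Of the 37 regions, WT 2 alone held 10, edKO 2 alone 9, WT 1 alone 4 and edKO 1 alone 1. By place, 57 of 59 regions at member starts were shared by all 4 libraries, 19 of 24 at ends of genes without a listed start, 13 of 19 at the start of another gene, 10 of 31 in the flanks and 1 of 4 in gene bodies. The strongest region missing from a library lay at the start of Ttyh2 near Rpl38, with −log10 p of 12.9, 25.4 and 14.8 in WT 1, WT 2 and edKO 2 and no call in edKO 1. The most regions of a gene were 4, in Rpl12, Rplp2, Rpl23a, Rpl8 and Rps18. For Rpl23a, 3 of the 4 were starts of the neighbours Nek8, Tlcd1 and Rab34. Such regions count for a member only by distance.

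The members are spread over the genome, with 14 on chromosome 7 and 4 on X. Rps2 ends 5899 bases before Rpl3l on chromosome 17. Rps2, of the small subunit, had −log10 p of 91.2, 107.1, 67.5 and 37.4 at its start and was called in all 4 libraries, unlike Rpl3l. Of the 57 ranked starts, 8 shared their region with the start of another gene, for example Rps18 with Vps52 and Rps27 with Rab13, and these had a median mean percentile of 67.0, beside 74.0 for the other 49.

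Peaks sat just upstream of the start. The median summit lay at −55, −56, −59 and −51 bases from the start, beside −48, −48, −47 and −44 for all protein-coding starts. Peak widths at member starts had medians of 614, 585, 520 and 524 bases, and those of all starts were 627, 618, 525 and 575 bases. Merged over libraries, the widest start regions after Rpl10 were those of Rpl26 (1023 bases) and Rpl22 (1006 bases), 2 large-subunit genes. Apart from Rpl3l, the narrowest were those of Rpl4 (440 bases), Rps15 (460 bases) and Rpl18 (470 bases).

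The promoter sequences shared features that the choice of genes did not use. A pyrimidine run of 8 or more bases, as in a TOP tract, reached into the 5 bases on either side of the listed start in 21 of 61 member promoters (34.4%), in 10.1% of those of mitochondrial ribosomal protein genes and in 9.36% of all. Rpl7a had the longest run, of 21 bases, followed by Rpl27a with 20, Rpl35 with 18 and Rpl15 with 17. The base at the first listed start was a C in 32.8% of members, 15.9% of the mitochondrial set and 13.9% of all. Starts were taken from RefSeq and were not measured here, so these shares describe the listed positions. The motif CTCTTTC occurred on the sense strand in 19.7%, 2.90% and 3.76%, and CTTTCC in 36.1%, 17.4% and 13.98%; the 2 overlap in some promoters.

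Matches to the ETS core CCGGAAG, bound by factors such as GABPA, stood in 39.3% of member promoters, 36.2% of the mitochondrial set and 12.05% of all, on either strand. The YY1 motif AAGATGG stood in 13.1%, 18.8% and 6.42%, and the GC box GGGCGG in 57.4%, 49.3% and 46.9%. The CCAAT box occurred in 31.1%, 39.1% and 39.4%, the TATA box TATAAA in 9.84%, 5.80% and 13.4%, and the E-box CACGTG, its own reverse complement, in 8.20%, 7.25% and 7.99%. Median GC content was 57%, 58.3% and 56.3%, and the median count of CpG was 21, 21 and 14. Among the 57 ranked starts, the 34 with a GC box had a median mean percentile of 78.5 and the 23 without one 62.2. The 23 with an ETS core had 78.1 and the other 34 had 71.4, and the 20 with a pyrimidine run had 76.0 and the other 37 had 72.4. The 16 with CTCTTTC had 62.6 and the other 41 had 74.1, and the 4 with AGGTCA had 33.9 and the other 53 had 73.5. The medians lay closer for CTTTCC, at 72.4 in the 27 with it and 73.5 in the other 30. They also lay closer for YY1 (75.7 with and 72.4 without), the CCAAT box (74.1 and 71.6), the E-box (74.1 and 71.6) and the TATA box (70.3 and 73.2). Each of these groups spanned weak and strong starts, and across the 57 genes the GC content and mean percentile had a Spearman's rho of 0.391, which is a description of these libraries only.

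**Figure D5:**
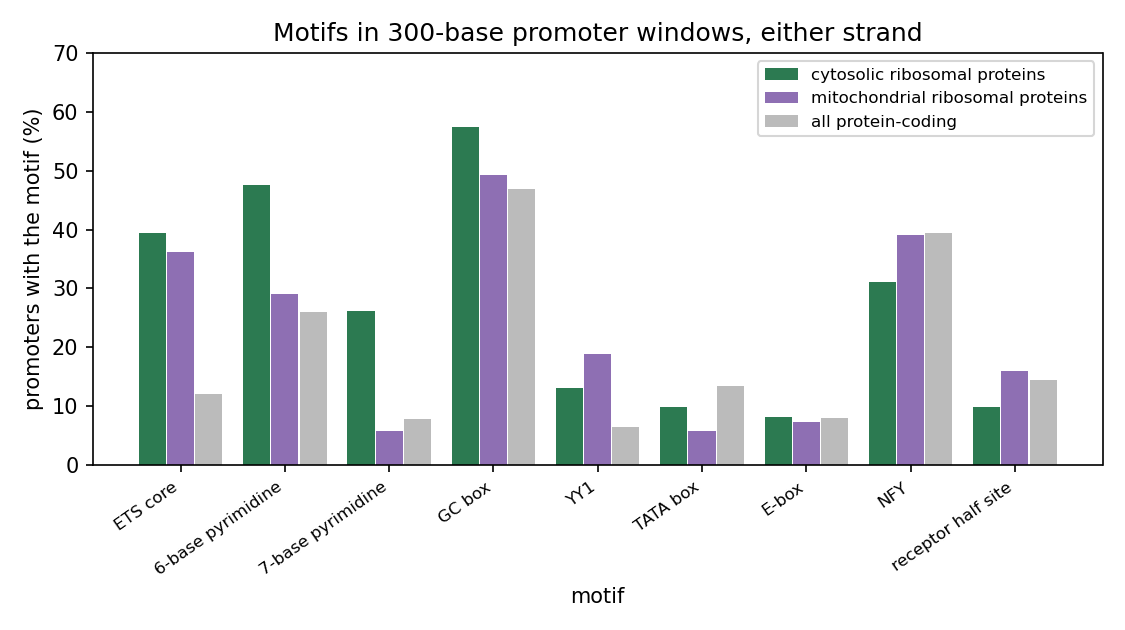
Percent of promoters (y axis) with a match to each motif (x axis), on either strand, for cytosolic ribosomal protein genes, mitochondrial ribosomal protein genes and all protein-coding genes. The ETS core stands at 39.3%, 36.2% and 12.05%, and the 7-base pyrimidine motif is 26.2% in members and 7.74% in all genes.

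Other genes of ribosome production and control were also called at most of their starts. Of the ribosome genes outside the symbol rule, 6 of 7 with a listed start were called in all 4 libraries, among them Fau, whose product is processed to a small-subunit protein, with −log10 p of 104.1, 98.8, 66.5 and 43.6. The start of Rps27rt was called in none. Translation factors and other genes with TOP mRNAs were called in all 4 libraries at 11 of 11 starts, led by Tpt1 with 224.2, 272.8, 178.9 and 138.5. Of the ribosome biogenesis genes, 17 of 19 were, and Ncl, the gene of nucleolin, had 199.2, 189.4, 151.5 and 106.3. Pes1, needed for large-subunit assembly, was missing in edKO 1, and Nop10, of the H/ACA particle, in all libraries. Of the mTOR pathway genes, 9 of 11 were called in all 4. Akt1 was missing in WT 1, and Tsc2, an inhibitor of mTOR signalling, was called in WT 2 only (13.1). Genes of mitochondrial ribosomal proteins had 12 WT-only regions among 123 called in both WT libraries (9.76%) and 0 edKO-only regions.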

How the data were processed

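ATAC-seq peak lists of 2 WT and 2 edKO hearts were used, 1 list per library. The submitters' processing notes name MACS2, Bowtie2, SAMtools, cutadapt, bcl2fastq and CASAVA, and GRCm38 (mm10) as build. Settings, Tn5 shift and duplicate handling are not stated there. Each deposited peak has from the authors a score, a fold enrichment (a ratio), the −log10 p, the −log10 q-value and the summit's offset. The score and q-value were not used in any result. The lowest deposited −log10 p of a list lay between 3.0 and 3.04, so a missing call means a site below the authors' threshold. Read depth is unknown. The pileup was solved from fold and −log10 p and came out whole, within 0.001 in −log10 p, for 99.9858% to 100% of peaks.

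Peaks overlapping by at least 1 base were merged across libraries. Where several regions met the start windows of a gene, that called in the most libraries, then with the highest mean −log10 p, was used. Libraries were compared by exact permutation tests (SciPy 1.17.1, pandas 2.3.3, Python 3.11.15), and the functions were tested on simulated peaks. Alternatives covered stricter −log10 p, equal list lengths, distances, windows, ranking by fold, leaving out each library, and a replicate block. Gene positions, strands and sequences came from RefSeq tables of GRCm38, and no strand or start was used for 20 members. Named genes were those with a start missing in a library or a genotype-specific region, the 5 strongest and 5 weakest, the 3 widest and 3 narrowest starts, the paralogues with their parents, the stalk genes, Rpsa and those with the most regions; others are examples chosen after their values were seen. Members and lists were chosen with earlier results of these data known.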

Additional observations from a re-analysis of the deposited data

How the results depend on the processing

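With 2 libraries of each genotype, no alternative could give a p below 0.333, and results are read here as values. Leaving out each library in turn gave 3 to 13.5 for the difference in regions called, 1 for the difference in called starts, 4 to 11 WT-only and 0 to 9 edKO-only regions, 57 starts called in every library and −1.21 to 4.96 for the difference in percentile, which fell below 0 without WT 1 (−0.0221) and without edKO 2 (−1.21). Without edKO 1 the edKO-only count of 9 rests on edKO 2 alone, and without WT 1 the WT-only count of 11 rests on WT 2 alone. The WT-only count was 2 (at Rpl3l and Rpl7) at a −log10 p of at least 5, 5 (near Rpl12, Rpl37a, Rpl4, Rplp0 and Rps24) at 10 or more, and 0 without the paralogues whose symbol ends in l, which also brought the difference in called starts to 0. At 10 or more, 50 starts were called in all 4 libraries, and 53 when a summit had to lie near the window. Ranking by fold enrichment turned the difference in percentile to −0.213. With lists of equal length the difference in regions was 2 and 56 starts were called in all 4. As a replicate block, pairing the libraries by their number, the differences were 8 regions, 1 start and 1.94 percentile points (exact sign-flip permutation p = 0.5, the smallest possible). The percentile deviations of same-numbered libraries from their group means had a correlation of −0.0233 over 16568 regions. With 2 libraries of each genotype this cannot show whether same-numbered hearts share a litter or batch. The numbers were not taken to pair hearts. In all, 56 values kept their direction or stayed near the reported count, 9 moved and 4 changed direction or came to 0. Those that kept their direction still varied. They ran from 2 to 13.5 for the difference in regions, from 0.5 to 4.5 for starts and from 1.94 to 4.96 for percentile. Some of the 56 values could not change. The replicate block gives the same mean differences by construction, and the summit rule could not alter the region counts. Leaving out a library could not lower the count of starts called in every library. The tally is therefore not a measure of robustness. Read depth is unknown, so the part of depth in a missing call at a weak site was not tested.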
